A study of Rattus norvegicus with 2 samples.

Results

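miRNAs of the miR-23, miR-24 and miR-27 families are made from a pair of paralogous clusters, and this account covers the 5 guide strands of those clusters on a rat miRNA array, rno-miR-23a, rno-miR-23b, rno-miR-27a, rno-miR-27b and rno-miR-24, out of 350 rat miRNAs. They were taken by name, without the passenger strands, whose names end in an asterisk. Total RNA came from the carotid artery of male Sprague-Dawley rats of 250 g. The uninjured group was 1 array of an artery without injury, and the injured group was 1 array of an artery taken 10 days after balloon injury, in which an inflated catheter is drawn through the vessel to strip its endothelium and stretch its wall. No transgene or drug is named in the labels. Whether an RNA sample was 1 rat or a pool, and whether the uninjured artery came from an injured animal, is not stated in the labels. With 1 array per group there was no replicate error and no test, so each value compares these 2 arrays and not the conditions.

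A miRNA is a short RNA that guides the silencing complex to messenger RNAs, mainly through the seed near its 5′ end. The a-cluster encodes miR-23a, miR-27a and miR-24-2, and the b-cluster encodes miR-23b, miR-27b and miR-24-1, each in 1 primary transcript. Both clusters are expressed in the cells of the vessel wall, and miR-23 and miR-27 are known from studies of endothelial sprouting, whereas miR-27 is also a repressor of fat cell formation and miR-24 of cell-cycle genes.

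The guide strands are shown because the a and b members are nearly the same molecule, which sets what an array can tell apart. All 5 array names matched a 3p strand in the RefSeq miRNA table of the rat build GRCr8. They are written 5′ to 3′, with the seed (bases 2 to 8) in capitals.
rno-miR-23a: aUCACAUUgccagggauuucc
rno-miR-23b: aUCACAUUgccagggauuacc
rno-miR-27a: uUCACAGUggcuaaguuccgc
rno-miR-27b: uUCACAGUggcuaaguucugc
rno-miR-24: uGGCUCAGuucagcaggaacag

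The 2 members of each pair shared the seed and differed at 1 of 21 bases (95.2% identity), outside the seed. Counted from 1 at the 5′ end and with the b member's base first, the difference was A19U between miR-23b and miR-23a and U19C between miR-27b and miR-27a. Among 693 rat mature miRNA names in the table, the seed UCACAUU occurred in miR-23a and miR-23b alone, UCACAGU in miR-27a and miR-27b alone, and GGCUCAG in miR-24 alone, so no other miRNA with a listed sequence belonged to these seed families. The messenger RNA sequences complementary to these seeds are AAUGUGA for miR-23, ACUGUGA for miR-27 and CUGAGCC for miR-24. The array's probe sequences were not used here, and whether its probes separate the a from the b member was not tested.

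On GRCr8 the a-cluster hairpins lay within 389 bases of chromosome 19 on the minus strand (miR-23a at chr19:40859778-40859798, miR-27a at chr19:40859614-40859634, miR-24 at chr19:40859481-40859502). No protein-coding gene of the RefSeq gene table overlapped this stretch, and the nearest on either side were Zswim4 and Nanos3. The b-cluster hairpins lay within 814 bases of chromosome 17 on the minus strand (miR-23b at chr17:1819405-1819425, miR-27b at chr17:1819163-1819183, miR-24 at chr17:1818672-1818693), inside the annotated spans of Aopep and Fancc. In both clusters the order along the transcript was miR-23, miR-27, miR-24.

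The hairpins of miR-24 are shown because they contain the same guide strand, in capitals, so its signal cannot be assigned to either cluster. The rest of each hairpin differs.
Mir24-2 (a-cluster): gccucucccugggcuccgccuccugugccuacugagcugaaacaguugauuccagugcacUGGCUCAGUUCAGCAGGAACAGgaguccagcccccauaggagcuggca
Mir24-1 (b-cluster): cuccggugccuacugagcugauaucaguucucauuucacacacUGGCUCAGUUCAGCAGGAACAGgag

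Over a global alignment, gaps included, the a and b hairpins were 66.0% identical for miR-23, 60.6% for miR-27 and 54.1% for miR-24. The annotated lengths of a and b differ for miR-23 (75 and 97 bases), miR-27 (87 and 97) and miR-24 (108 and 68). Unequal annotated ends lower these values, so they cannot be set directly against the identity of the guide strands, which have equal lengths.

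All 5 guide strands were bright on both arrays and close in signal between them. Each had a flag of 1, read as measured, as did 158 of the 350 miRNAs on both arrays. The lowest of the 10 member signals was 220.2 times the highest signal of any unmeasured miRNA on its array, so none lay near the detection limit. A ratio below is the log2 of injured over uninjured signal after the arrays were aligned at the 75th percentile of the 158 miRNAs. That alignment added 0.09 to every log2 ratio.

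Of the a-cluster, rno-miR-23a, a repressor of glutaminase, had signals of 3691 uninjured and 3693 injured. The values as deposited differed by 0.066%, and the scaled log2 ratio was 0.09 (1.06-fold). rno-miR-27a had signals of 1948 uninjured and 2332 injured. It was 19.7% higher as deposited, with a scaled log2 ratio of 0.35 (1.27-fold), the highest of the 5.

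Of the b-cluster, rno-miR-23b had signals of 4887 uninjured and 4155 injured. It was the 1 member with a negative scaled log2 ratio, at -0.15 (1.11-fold lower), and as deposited its injured signal was 0.850 of the uninjured one. rno-miR-27b had signals of 2197 uninjured and 2180 injured, a scaled log2 ratio of 0.08 (1.05-fold). The b-cluster members thus lay on either side of 0 after scaling, and both were lower on the injured array as deposited.

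rno-miR-24, the product of both clusters, had signals of 4084 uninjured and 4095 injured, a difference of 0.28% as deposited and a scaled log2 ratio of 0.09 (1.07-fold). In the order of ratios miR-24, miR-23a and miR-27b ranked 91, 92 and 95 of 158, within 0.02 on the log2 scale. Whether neighbours in that order differ could not be judged without replicates.

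**Figure D1:**
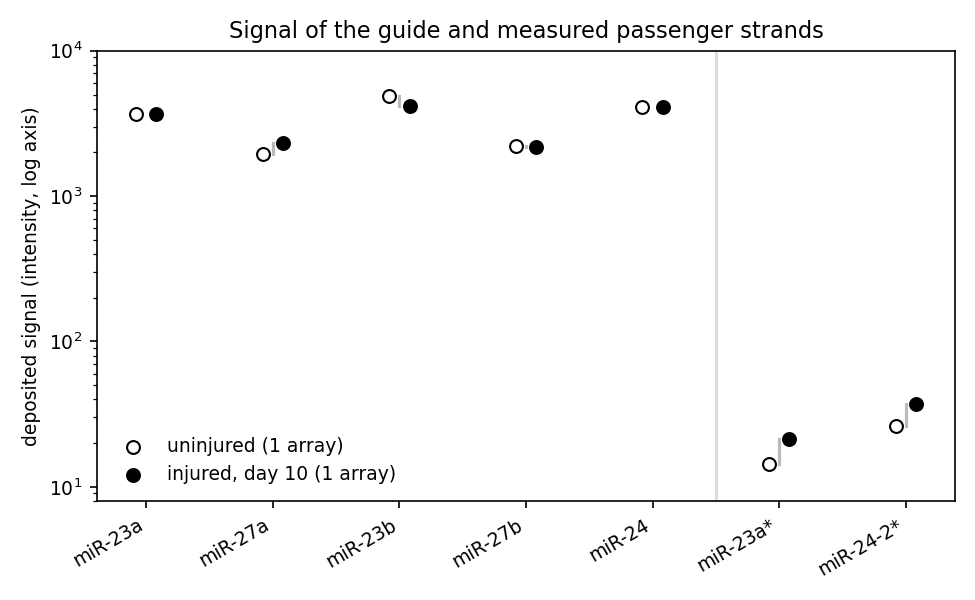
Deposited signal (intensity, log axis) of the 5 guide strands and of the 2 passenger strands measured on both arrays, with the uninjured array as open and the injured array as filled points. The guide strands sit between 1948 and 4887, and the gap between open and filled points is widest for miR-27a and miR-23b among them; heights of different miRNAs are not comparable, since brightness depends on the probe.

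Together the 5 made up 17.6% of all miRNA signal in the uninjured sample and 16.9% of it in the injured one. The share went from 5.12% to 4.26% for miR-23b and from 2.04% to 2.39% for miR-27a. For miR-23a, miR-24 and miR-27b it moved from 3.86% to 3.79%, from 4.28% to 4.20% and from 2.30% to 2.24%. These shares sum brightness over different probes and are not shares of molecules.

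None of the 5 was at least 2-fold higher or lower, and none was at least 1.5-fold higher or lower. Of the 158 miRNAs measured on both arrays 16.5% passed 2-fold and 35.4% passed 1.5-fold. All 5 members were among the 53 brightest by mean log2 signal, of which 18.9% passed 1.5-fold, so a count of 0 of 5 is near that background. The members' median log2 ratio was 0.09, beside 0.08 for the brightest 53 (quartiles of -0.15 and 0.29) and 0.14 for all 158 (quartiles of -0.14 and 0.58). Their ratios spanned 0.49 on the log2 scale, from miR-23b to miR-27a. With miR-27a at rank 59 and miR-23b at rank 119 of 158 from the highest ratio, all 5 lay away from the extremes of the array, which ran from -2.47 to 2.565.

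**Figure D2:**
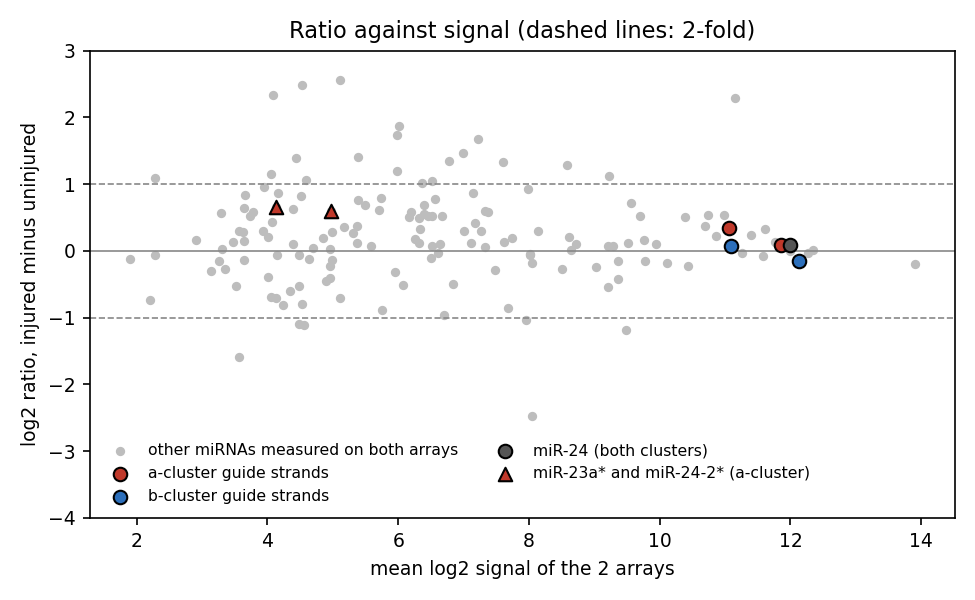
Log2 ratio (injured minus uninjured, 75th percentile scaling) against mean log2 signal for the 158 miRNAs measured on both arrays, with the guide strands as circles and 2 passenger strands of the a-cluster as triangles. The 5 guide strands lie at the bright end between -0.15 and 0.35, well inside the dashed 2-fold lines, and the passenger strands miR-23a* and miR-24-2* lie at lower signal, at 0.66 and 0.59.

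The sign of these small ratios depended on how the arrays were aligned. With the medians of the measured miRNAs aligned all 5 were negative, from -0.59 for miR-23b to -0.10 for miR-27a, and with the control features aligned they ran from -0.74 to -0.24. miR-23b was negative under all 8 settings tried, the reported one included, from -0.74 to -0.15, while each of the other 4 changed sign between settings. The 8 are not independent: the deposited ratio table repeats the unscaled ratio. Subtracting the median undetected signal, 1 on each array, hardly alters signals this bright. With the arrays aligned on control features, on their medians or on the 75th percentile taken over all miRNAs, miR-23b alone was past 1.5-fold, lower, and no member passed 2-fold under any of the 8. Relative to the median of all 158 miRNAs, the members' median lay between -0.07 and -0.05 under the 8 settings. A single factor per array cancels in this difference, so most of the settings could not move it. Only quantile normalization, subtraction of the median undetected signal and 1 name absent from the deposited ratio table could.

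**Figure D3:**
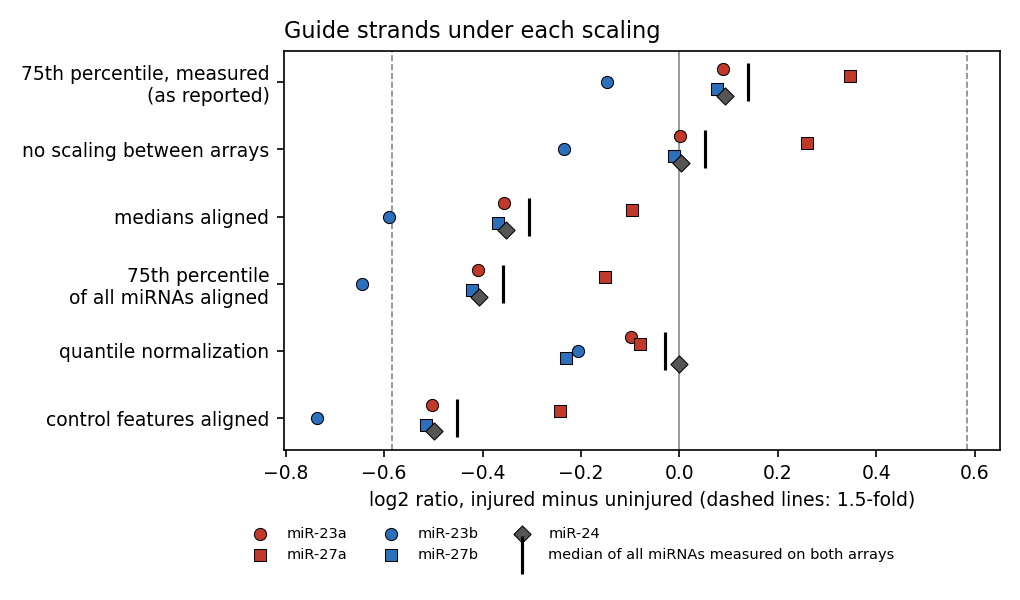
Log2 ratio of each guide strand under 6 ways of aligning the 2 arrays, with a-cluster members in red, b-cluster members in blue, miR-24 in grey and the median of all 158 miRNAs as a black bar. The members move together with the bar, as a single factor per array forces. Their median goes from 0.09 with the 75th percentile to -0.50 with the control features aligned. Quantile normalization is the 1 setting that also changes their spacing.

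The a-cluster was compared with the b-cluster through the differences of their log2 ratios, in which any single factor per array cancels. miR-23a minus miR-23b was 0.24, so the injured-to-uninjured ratio was 1.18-fold higher for the a member. miR-27a minus miR-27b was 0.27, or 1.21-fold. Both pairs thus went the same way, with the a member relatively higher in the injured artery. Under quantile normalization the differences were 0.11 and 0.15. The a and b probes may each detect both members, and how much of either signal comes from the other was not tested.

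As background, 11 pairs of miRNAs on the array had names that differ only in the letter a or b after the number and had both members measured on both arrays. By size, the miR-23 and miR-27 differences ranked 5 and 6 of the 11, counted from the smallest. Of the 9 other pairs, 4 differed by less than either and 5 by more, with a median size of 0.30. The smallest was miR-133a minus miR-133b at -0.06 and the largest miR-146a minus miR-146b at -1.79. The miR-23 and miR-27 pairs were the 2 highest with sign, but which member carries the letter a is a matter of naming, and miR-125a-5p minus miR-125b-5p, at 0.23, was almost as high. Differences of this size between lettered members were thus common on these 2 arrays. Base differences within the 9 other pairs were not counted, so those pairs may be less alike in sequence than the miR-23 and miR-27 pairs.

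The passenger strands come from the other arm of each hairpin, are mostly degraded, and differ more between the clusters than the guide strands do. Those of miR-24 are shown because they separate its hairpins: they share the first 16 of 22 bases, seed in capitals, and differ at 5 positions after them without gaps.
rno-miR-24-2* (a-cluster): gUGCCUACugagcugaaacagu
rno-miR-24-1* (b-cluster): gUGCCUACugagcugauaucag

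Both a-cluster passenger strands that were measured were brighter on the injured array. rno-miR-23a* had signals of 14.3 uninjured and 21.3 injured, a scaled log2 ratio of 0.66 (1.58-fold). rno-miR-24-2* had signals of 26.3 uninjured and 37.4 injured, a scaled log2 ratio of 0.59 (1.51-fold). Each was past 1.5-fold, while the guide strand beside it was at 1.06-fold or 1.07-fold. The third passenger strand of that cluster, rno-miR-27a*, was not measured on either array, and neither was rno-miR-24-1* of the b-cluster, each listed at the floor of 1. Passenger strands of the a-cluster could thus not be set against a measured one of the b-cluster. The array has no feature named miR-23b* or miR-27b*.

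Relative to its own guide strand, miR-23a* was 0.57 higher on the log2 scale (1.49-fold) and miR-24-2* was 0.50 higher (1.41-fold) in the injured-to-uninjured ratio. A single factor per array cancels in these differences, so only quantile normalization and subtraction of the median undetected signal could move them. With those included they ran from 0.56 to 0.61 and from 0.45 to 0.52. The scaled ratios themselves fell short of 1.5-fold in 6 of the other 7 settings and came down to 0.07 and 0.0016 with the control features aligned. Because miR-24 comes from both clusters, the second difference sets a strand of 1 hairpin against a strand of both. The miR-23a* and miR-24-2* signals were 1.62 and 2.98 times the highest unmeasured signal on the uninjured array, so they are far less secure than those of the guide strands.

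Passenger strands named with an asterisk were paired by name with a guide measured on both arrays, a comparison chosen after these values were seen. Among the 13 pairs so made, miR-23a* and miR-24-2* had the highest and the third-highest difference. Of the 11 others, 3 were above their guide strand, led by miR-99b* at 0.54, and the median was -0.30. The pairing left out miR-30c-2*, at a log2 ratio of 0.14, whose guide miR-30c was at -0.24. It also left out hairpins with both strands named by arm, for which the passenger strand was not assigned. Log2 ratios were 0.61 for miR-125a-3p and 0.20 for miR-125a-5p, and -0.07 for miR-30b-3p and -0.17 for miR-30b-5p. They were 0.59 and 0.27 for miR-324-3p and miR-324-5p, 0.52 and 0.12 for miR-345-3p and miR-345-5p, and 0.37 and 0.72 for miR-199a-3p and miR-199a-5p. The ranks and median thus cover asterisk names only. The middle 53 miRNAs by signal, which hold miR-24-2*, had a median log2 ratio of 0.49, whereas the dimmest 52, which hold miR-23a*, had a median of 0.07. Of those 52, 14 were at least 1.5-fold higher, so a ratio such as that of miR-23a* was not rare among dim miRNAs.

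**Figure D4:**
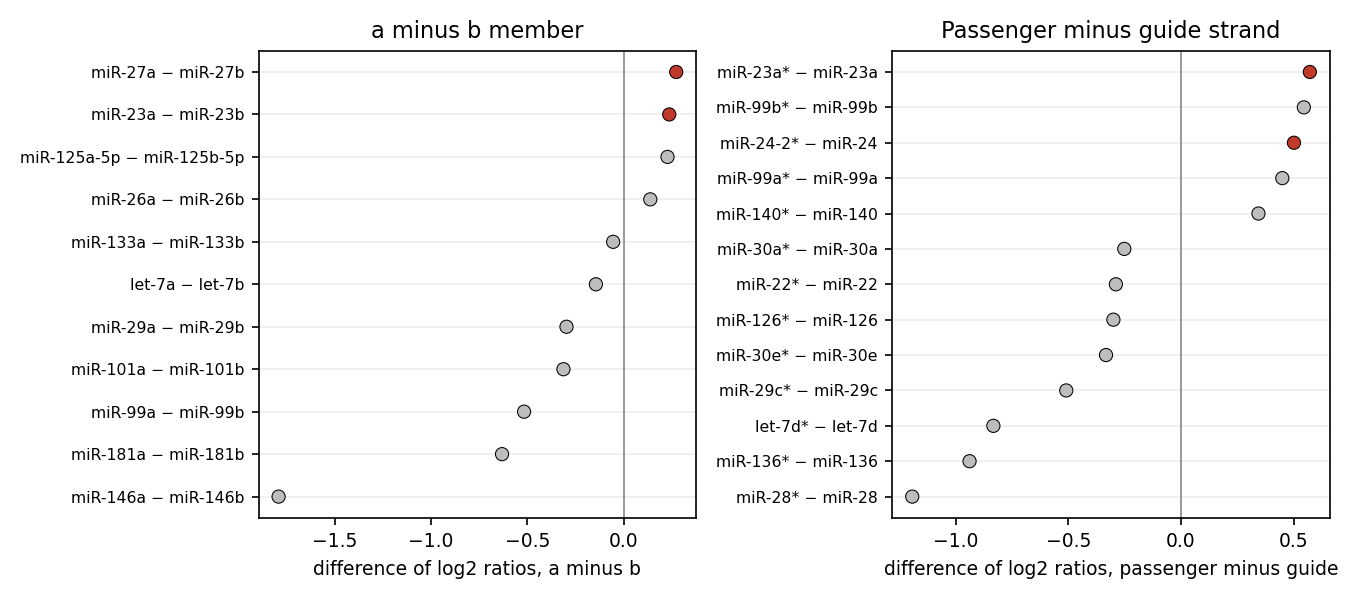
Differences of log2 ratios (injured minus uninjured) for 11 pairs of a and b members (left) and for 13 pairs of asterisk-named passenger and guide strand (right). The pairs from these clusters are in red. On the left the red points are at 0.24 and 0.27 while the other pairs run from -1.79 to 0.23; on the right they are at 0.57 and 0.50 while the others run from -1.19 to 0.54.

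The miRNAs whose ratio was nearest to the members' median of 0.09 were miR-99b, miR-185 and miR-107, with distances of 0.0087, 0.0097 and 0.0100 on the log2 scale over the 2 arrays. Likeness in 1 ratio between 2 arrays is a weak measure, and many miRNAs lay close to 0.

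Of a list of 18 other miRNAs of endothelium and vessel growth, 15 could be compared between the arrays. Past 2-fold were 5 of the 15, all higher, with a median log2 ratio of 0.52. The 5 were miR-221 (1.47), miR-15b (1.33), miR-31 (1.28), miR-92a (1.20) and miR-222 (1.02) on the log2 scale. The lowest of the 15 was miR-218, at -0.96. miR-132 and miR-503 were measured on the injured array only, and miR-296 on neither. Over the settings the count of those at least 2-fold higher ran from 0 to 5, and of those at least 2-fold lower from 0 to 1. The list's median ran from -0.08 to 0.52, so its direction also depended on the alignment. The list was chosen with results of these data known, and of all 158 miRNAs 12.7% were at least 2-fold higher.

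Markers of other cells moved between these arrays, and their part in the values of the 5 members was not tested. The summed signal of the 5 leukocyte miRNAs on the array was 241 uninjured and 515 injured, and 3 of the 5 passed 2-fold, all higher. Of the rest, miR-150 went the other way, at -0.50 on the log2 scale, and miR-342-3p moved little, at 0.19. Over the 8 settings, from 0 to 1 of the leukocyte miRNAs was at least 2-fold lower. The summed signal of the red-cell miRNAs miR-451 and miR-144 was 677 and 125, each lower by 2-fold or more. For the striated muscle miRNAs it was 432 and 200, with 3 of 4 measured members at least 2-fold lower and miR-206 and miR-208 not measured on either array. Of all 158 miRNAs 12.7% were at least 2-fold higher and 3.8% at least 2-fold lower, and over the settings the numbers ran from 7 to 21 higher and from 6 to 23 lower. For the nerve miRNAs the summed signal was 441 and 228, of which miR-338 alone was 283 and 147. Of the 8, 5 were measured on the uninjured array only and miR-219-5p on the injured array only. miR-338 and miR-128 were measured on both, at log2 ratios of -0.85 and 0.36. Among all 350 miRNAs, 166 were measured on the uninjured array, 184 on the injured array and 158 on both. Among the 5, miR-9, at 7.43, lay under the highest unmeasured signal of the uninjured array, 8.84. The nerve and striated muscle sums include signals of miRNAs not measured on an array. The endothelial miR-126 and miR-126* summed to 626 and 615, and the smooth muscle miR-143 and miR-145, which mark the labelled tissue, were measured on both arrays and summed to 17749 and 14465. In such whole-artery RNA, fewer cells of a type and less of a miRNA per cell cannot be told apart.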

How the data were processed

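miRNA was measured on 1-colour arrays (Cy3, Agilent labelling reagent, per the labels' protocols), 1 per group. The deposited array files give a signal intensity on a linear scale and a flag for 350 rat miRNAs and 22 control features; the scanner software, background handling and normalization are not stated in the labels or headers. The flag, which was 0 for each of 7 negative controls, was read as detection. On each array 109 miRNAs are listed at exactly 1. The deposited series table holds a ratio, which matched the injured over the uninjured intensity (relative tolerance 1e-05) for 349 of 349 shared names. Log2 intensities were scaled per array by the 75th percentile of the 158 miRNAs with a flag of 1 on both arrays (400.8 uninjured, 377 injured), in Python 3.11.15 with pandas 2.3.3. No test was possible, and a fold of 2 or 1.5 served as a description. The alternatives were 5 other scalings, the deposited ratio table and subtraction of the median undetected signal. The scaling script was tested on data simulated from the uninjured signals, with 1 array factor, 20 changed miRNAs and no noise. That checks the computation and cannot show which alignment suits these arrays. The number of arrays limits the precision. Sequences are from RefSeq (GRCr8), in which 304 of 350 array names had an entry of the same number; hairpins were aligned with Biopython 1.88 (match 1, mismatch -1, gap opening -2, gap extension -1). The named miRNAs are the 5 members, their passenger strands, miRNAs sharing a seed, the 3 nearest in ratio, the most and least different lettered pairs and examples from the lists. The members and lists were chosen with earlier results of these data known.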

Additional observations from a re-analysis of the deposited data

Results flagged for a closer look

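The control features were used above only as 1 alternative alignment of the arrays. The 6 detected on both arrays were each brighter on the injured array, with a median unscaled log2 ratio of 0.50 and a range from 0.31 to 0.96, while the unscaled ratio of miR-23a was 0.00096 and that of miR-24 was 0.0040. They are named hur_1, hur_2, hur_4, hur_6, mr_1 and miRNABrightCorner30. Beyond these names, what the features detect is not stated in the files.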

How the results depend on the processing

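No setting tried here measures replicate error, since each group is a single array. No paired analysis was possible because each group holds 1 array. The members' median log2 ratio was 0.00096 without scaling and in the deposited ratio table, -0.36 once medians were aligned, -0.41 when the 75th percentile was taken over all miRNAs, -0.10 under quantile normalization and -0.50 when aligned on control features. The number of members past 1.5-fold was 1 under the alignment on medians, on the 75th percentile over all miRNAs and on control features. Quantile normalization gave differences of 0.11 (miR-23a minus miR-23b) and 0.15 (miR-27a minus miR-27b), and in the other 6 alternatives they moved by under 0.005. The number of members past 2-fold was 0 in all 7. Requiring a signal above the highest undetected one left 151 miRNAs, of which 22 passed 2-fold in place of 26. The floor for strands measured on 1 array was not needed, since no passenger strand of these clusters was measured on 1 array only.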
